A study of Mus musculus with 6 samples.

Results

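The 39 genes described here drive or mark the cell cycle, and they were taken by symbol from the 16247 genes of the deposited normalized table and joined by Ensembl identifier to the 51912 genes of the count table. All 39 symbols were found. By role, 10 of them serve DNA replication, 18 mitosis and 7 are cyclins and kinases of the G1 and S phases. The last 4 are the cell cycle brakes *Cdkn1a*, *Cdkn1b* and *Rb1* and the transcription factor *E2f1*. Of the 39 genes, 38 passed the filter on low counts and were tested by genotype, and *Ccnb1*, the gene of cyclin B1, was the one that did not.

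A cell that commits to division first makes D-type cyclins, which activate CDK4 and release E2F factors from the RB1 protein. E2F factors switch on the genes for copying DNA, and a later wave of genes builds the spindle, pulls the chromosomes apart and cuts the cell into daughters. Adult muscle fibers do not divide, so dividing cells in a resting muscle are found among the other cells, such as satellite cells, fibroblasts, vessel cells and macrophages. Some replication factors also serve DNA repair or the supply of nucleotides in cells that do not divide.

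The soleus, a slow-twitch calf muscle, was taken from 8-week-old mice of the strain labelled C57BL6/N, 3 of them heterozygous for a KO-first allele of *Mustn1* (HET) and 3 wild-type (WT) littermates. The KO-first allele (tm1a) is a gene trap in which a lacZ and neomycin cassette placed in *Mustn1* is designed to capture its transcript, and HET mice keep 1 intact allele. The paper reports that under certain conditions the capture is incomplete. Each mouse gave 1 library of polyA-enriched RNA, and the labels give no treatment. The name of the supplied line also lists the agouti allele A-tm1Brd, and which of the 6 mice carried it is not given in the sources used here. The labels do not say which mice shared a litter or a cage, so whether litter or cage went along with genotype is not known. The p-values set the genotype difference against the spread between these 6 mice, estimated with information shared across genes. They do not account for litter or cage.

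The libraries held between 26790075 and 50368796 reads on genes. *Mustn1*, checked first, was lower in every HET mouse. It had 471, 452 and 574 reads in HET mice 1 to 3 and 691, 817 and 1504 in the WT mice, and the log2 fold change was −0.96 (SE 0.15, adjusted p = 0.0452, edgeR). The mice are labelled male, but *Xist* had between 3858 and 9154 reads in each library, and each of *Uty*, *Eif2s3y*, *Kdm5d* and *Ddx3y* from the Y chromosome had between 0 and 9. *Myh7*, a slow myosin gene, lay between 13640 and 14770 CPM (reads scaled to library size with TMM factors) in all 6 mice.

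The start regions of the replication and mitosis genes differed in the short motifs they held, and 5 of them are printed as chosen examples. Windows of 300 bases, 250 before and 50 after each RefSeq start (GRCm38.p6), were at hand for 31 of the 39 genes, some with more than 1 start, and 34 windows were searched on both strands. In 26 of the 34, the bases after the start were found in a reference transcript of the gene. The printed windows of *Mki67*, *Mcm5* and *Mcm6* were not among these 26, so their start may differ from that of the reference transcripts. *Ccna2*, *Mcm4*, *Kif20a*, *Ccnd2*, *Aurkb*, *Ccne2*, *Ccnd1* and *Rb1* had none. The motifs were the cell cycle homology region (CHR), read as the letters TTTGAA or as the letters TTCGAA, which the DREAM and MuvB complexes bind in mitotic genes, and the CCAAT box (CCAAT). The E2F site was read as the letters TTCCCGC, or as the letters TTCGCGC, or as the letters TTGCCGC, or as the letters TTGGCGC. In 2 of the 34 windows an E2F match shared bases with a CCAAT match. The sequences run 5′ to 3′ along the gene's strand, and capitals mark matches to any of the motifs. *Mki67* is on the minus strand at chr7:135716330-135716629, *Cdk1* on the minus strand at chr10:69352863-69353162 and *Plk1* on the plus strand at chr7:122159185-122159484. *Mcm5* is on the plus strand at chr8:75109259-75109558 and *Mcm6* on the minus strand at chr1:128359656-128359955.
Mki67: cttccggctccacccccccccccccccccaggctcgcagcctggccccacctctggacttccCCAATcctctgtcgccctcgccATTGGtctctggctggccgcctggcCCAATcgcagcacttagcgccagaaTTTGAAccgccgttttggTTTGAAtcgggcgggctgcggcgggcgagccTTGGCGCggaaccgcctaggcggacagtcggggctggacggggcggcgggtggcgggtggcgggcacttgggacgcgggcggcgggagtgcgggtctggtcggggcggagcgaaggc
Cdk1: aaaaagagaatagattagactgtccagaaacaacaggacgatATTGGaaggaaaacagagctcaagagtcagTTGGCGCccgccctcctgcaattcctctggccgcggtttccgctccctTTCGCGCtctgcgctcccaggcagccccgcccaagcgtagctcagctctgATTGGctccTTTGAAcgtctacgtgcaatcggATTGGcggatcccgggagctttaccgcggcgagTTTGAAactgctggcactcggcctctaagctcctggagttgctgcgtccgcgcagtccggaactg
Plk1: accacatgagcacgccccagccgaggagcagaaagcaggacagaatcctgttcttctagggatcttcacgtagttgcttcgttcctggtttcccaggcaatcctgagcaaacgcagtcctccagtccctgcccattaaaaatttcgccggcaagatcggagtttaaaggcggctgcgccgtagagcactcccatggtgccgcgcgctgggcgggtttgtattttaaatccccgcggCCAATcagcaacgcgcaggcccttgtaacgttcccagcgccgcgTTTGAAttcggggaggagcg
Mcm5: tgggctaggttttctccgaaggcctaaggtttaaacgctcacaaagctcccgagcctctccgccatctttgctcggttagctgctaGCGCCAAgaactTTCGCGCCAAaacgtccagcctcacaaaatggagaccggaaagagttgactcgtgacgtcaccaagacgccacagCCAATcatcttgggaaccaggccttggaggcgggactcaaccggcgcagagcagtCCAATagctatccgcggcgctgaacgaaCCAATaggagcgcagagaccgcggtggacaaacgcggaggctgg
Mcm6: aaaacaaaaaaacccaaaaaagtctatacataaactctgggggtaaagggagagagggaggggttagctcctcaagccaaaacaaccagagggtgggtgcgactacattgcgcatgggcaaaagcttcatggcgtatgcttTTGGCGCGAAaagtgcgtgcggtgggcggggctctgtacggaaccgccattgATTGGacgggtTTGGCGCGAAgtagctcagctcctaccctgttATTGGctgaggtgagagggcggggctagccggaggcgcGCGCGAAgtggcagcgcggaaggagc
The *Mki67* and *Cdk1* windows held TTTGAA in 2 places each, and that of *Plk1* in 1. The *Mcm5* and *Mcm6* windows held no CHR but 3 and 5 E2F matches, and the 5 in *Mcm6* were the most of any window searched.

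Of the 15 windows of mitosis genes, 12 (80%) held a CHR, where 19.2% of all 32851 RefSeq windows did. The same 12 also held a CCAAT box, a pair found in 7.52% of all windows. Among these genes, the CCAAT box alone did not separate the mitosis from the replication role. It was found in 14 mitosis windows (93.3%) and 9 replication windows (90%), against 37.4% of all windows. The share was 40% in windows of G1 and S genes and 25% in those of brakes and *E2f1*. In windows of the further replication and mitosis genes described below, it was 44.7% and 65.1%. The windows of *Birc5*, *Ccnb1* and *Cenpe* had no CHR. Of the 10 windows of replication genes, 2 held a CHR (20%), those of *Mcm2* and of 1 start of *Mcm7*, and 7 held an E2F match (70%), against 9.57% of all windows. An E2F match was found in 3 of the mitosis windows (20%), those of *Ccnb1*, *Cdk1* and *Mki67*. The 5 windows of G1 and S genes and the 4 of brakes and *E2f1* held no CHR. These are matches of letters only, and binding was not measured.

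No cell cycle gene differed between the genotypes at the adjusted threshold. In the quasi-likelihood test of edgeR, 0 of the 38 tested members had an adjusted p under 0.05, where 0.15% of all 14696 tested genes did, 0.143% higher and 0.0068% lower in HET. DESeq2 and limma-voom also called 0 members. At an unadjusted p under 0.05, 5 members (13.2%) lay higher in HET and 0 lower, against a background of 5.76% higher and 2% lower, and 7.76% in either direction. The 5 were *Mcm5*, *Aurkb*, *Plk1*, *Ccnd2* and *E2f1*. *Aurkb* and *Plk1* passed the filter on low counts through their HET libraries alone, and among the other 36 members 3 (8.33%) lay higher at that p. The CPM of the 3 HET and the 3 WT mice did not overlap in 6 members (15.8%), while the background was 13.6%. *Mcm5*, *Aurkb*, *Plk1* and *Ccnd2* were higher in every HET mouse (background 7.55%), and *Cdkn1b* and *Rb1* were lower in every HET mouse (background 6.02%). With *Aurkb* and *Plk1* left aside, 4 of 36 members (11.1%) did not overlap. The log2 fold change lay above 0 in 29 members (76.3%, against 45.6% of all tested genes) and below 0 in 9, and its median was 0.27, beside −0.02 over all tested genes. For a single gene, an exact two-sided permutation test of 3 mice against 3 cannot go below p = 0.1. In whole muscle, fewer cells of a type and less RNA per cell cannot be told apart.

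**Figure D1:**
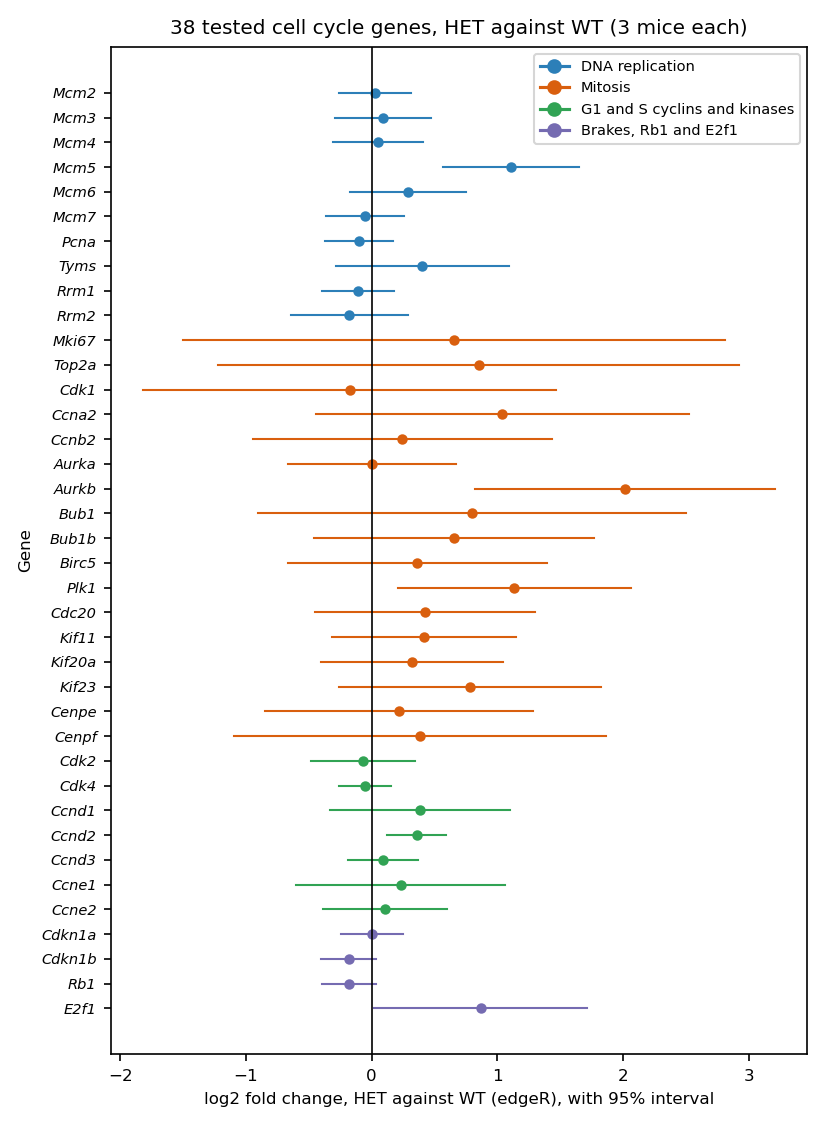
Log2 fold change of each of the 38 tested genes, HET against WT (x axis, edgeR), with the 95% confidence interval as a line; colors give the role. Most replication genes sit near 0, with *Mcm5* at 1.11 and *Tyms* at 0.40 on longer lines, and mitosis genes lie mostly right of 0 with long lines, 15 of 17 of which cross 0.

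Most replication genes varied little between the genotypes. Their median log2 fold change was 0.04, with 6 of 10 above 0 and a range from −0.18 to 1.11. The highest of the 6 mice had between 1.10 (*Mcm2*) and 2.95 times (*Mcm5*) the CPM of the lowest, with *Tyms* at 2.15 times and *Mcm6* at 1.81 times. *Mcm2*, a subunit of the MCM helicase that unwinds DNA at the fork, had 252, 192 and 297 reads in HET mice 1 to 3 and 208, 183 and 334 in WT mice. In CPM these were 6.73, 7.15 and 6.77 in HET and 6.96, 6.49 and 6.77 in WT. The 6 values of *Mcm2* interleaved, and its log2 fold change was 0.03 with a 95% interval from −0.26 to 0.32.

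*Pcna*, the sliding clamp that holds DNA polymerases on their template, was at 9.86, 9.65 and 9.55 CPM in HET and 11.1, 9.47 and 10.6 CPM in WT. Its highest and its lowest values were both in WT mice. The log2 fold change of *Pcna* was −0.10 (95% interval from −0.37 to 0.17). Per kilobase of exon, *Pcna* had the highest level of the replication genes, at 4.18 CPM, and *Tyms*, the gene of thymidylate synthase, the lowest, at 0.165 CPM. *Rrm2*, the small subunit of the ribonucleotide reductase that makes DNA building blocks, was at 2.62, 3.35 and 3.12 CPM in HET and 4.32, 2.87 and 3.10 CPM in WT. It had the lowest fold change of the role (log2 −0.18, SE 0.21, adjusted p = 0.922, edgeR), and the genotypes overlapped. The genotypes also overlapped in *Rrm1*, the large subunit of the same enzyme, with a log2 fold change of −0.11 (SE 0.13), and in *Tyms*, with 0.40 (SE 0.31).

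*Mcm5* (chr8:75109569-75128439) was the replication gene with the highest fold change. It had 71, 59 and 117 reads in HET mice 1 to 3 and 27, 30 and 57 in WT mice 1 to 3. In CPM these were 1.90, 2.20 and 2.67 against 0.903, 1.06 and 1.16, a mean of 2.25 ± 0.388 in HET and 1.04 ± 0.127 in WT (SD, n = 3). Every HET mouse lay above every WT mouse, at a ratio of means of 2.17. The log2 fold change was 1.11 (SE 0.24, 95% interval from 0.57 to 1.65), with an unadjusted p of 0.000983 and an adjusted p of 0.131 in edgeR. With DESeq2 its adjusted p was 0.0537, and when no filter on low counts was applied edgeR gave 0.0131, past the threshold. Over the 12 alternatives the log2 fold change of *Mcm5* lay between 0.96 and 1.22 and its adjusted p between 0.0131 and 0.538.

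The other 5 MCM genes overlapped between the genotypes. Their log2 fold changes lay between −0.05 (*Mcm7*) and 0.29 (*Mcm6*), and each of their 95% intervals held 0. *Mcm6* was at 8.17, 5.96 and 10.7 CPM in HET and 5.92, 7.87 and 6.67 CPM in WT, with HET mouse 3 highest and HET mouse 2 among the lowest. Set against the summed CPM of the other 5, *Mcm5* came to 5.72%, 6.41% and 6.96% in HET mice and 2.74%, 3.35% and 3.31% in WT mice. The sum of the other 5 lay between 31.8 (WT mouse 2) and 38.3 CPM (HET mouse 3). The ratio therefore mostly repeats the *Mcm5* values and is no separate result. The helicase holds 1 copy of each of the 6 subunits, and per kilobase of exon the *Mcm5* level, at 0.412 CPM, was the lowest of the 6 genes.

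**Figure D2:**
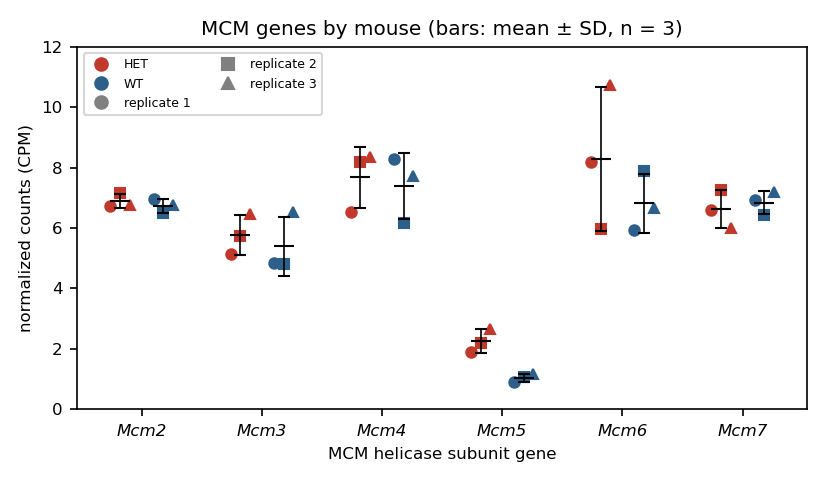
Normalized counts (CPM, y axis) of the 6 MCM helicase genes (x axis) in each HET (red) and WT (blue) mouse, with symbols for replicates 1 to 3 and bars for mean ± SD (n = 3). Only *Mcm5* has all HET mice, at 1.90 to 2.67 CPM, above all WT mice, at 0.903 to 1.16 CPM.

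The mitosis genes differed more between mice of one genotype than between the genotypes. Their median log2 fold change was 0.42, and 16 of the 17 tested lay above 0. In 13 of the 17, however, the SD within genotypes was larger than the size of the fold change. The median SD of log2 CPM within genotypes was 0.73, beside 0.21 for replication genes and 0.18 over all tested genes. These genes had few reads, with a median of 39.5 per mouse. The spread between mice exceeded that of repeated counting, with a median chi-square per degree of freedom of 2.93 in HET and 8.14 in WT, where counting alone gives about 1. Over all tested genes, which have more reads, it was 4.89 and 3.80.

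*Mki67*, the proliferation marker Ki-67 that coats chromosomes in mitosis, had 155, 58 and 372 reads in HET mice 1 to 3 and 118, 147 and 33 in WT mice 1 to 3. This was 4.14, 2.16 and 8.48 CPM in HET and 3.95, 5.21 and 0.669 CPM in WT. HET mouse 3 was highest and WT mouse 3 lowest, and the other 4 mice interleaved. Within a genotype the highest mouse had 3.92 times the level of the lowest in HET and 7.80 times in WT. The difference between genotypes was 0.66 on the log2 scale, with a 95% interval from −1.50 to 2.81 (adjusted p = 0.932, edgeR).

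*Top2a*, the topoisomerase that untangles sister chromosomes, was at 2.56, 1.75 and 6.79 CPM in HET and 2.04, 3.94 and 0.527 CPM in WT. Its 6 mice stood in the same order as for *Mki67*, as did those of the kinesin gene *Kif20a*. The log2 fold change of *Top2a* was 0.85 (SE 0.83). *Cdk1*, the kinase that starts mitosis, had the lowest fold change of the role (log2 −0.18, SE 0.72) and was at 0.748, 0.634 and 0.866 CPM in HET and 1.04, 1.56 and 0.101 CPM in WT. Its HET mice lay close together, whereas WT mouse 3, with 5 reads, lay 15.4 times below WT mouse 2.

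The same mice stood at the ends across the mitosis genes. WT mouse 3 was the lowest of the 6 in 13 of the 17 tested genes, and HET mouse 3 the highest in 10. The 18 genes summed to 24.4, 17.4 and 41.7 CPM in HET mice 1 to 3 and to 20.8, 28.2 and 10.1 CPM in WT mice 1 to 3, so that HET mouse 2 lay below WT mice 1 and 2. WT mouse 3 had the most reads on genes of all libraries but 496 reads on these 18, whereas HET mouse 3, with fewer reads on genes, had 1828. Without WT mouse 3, the median log2 fold change of the mitosis genes was 0.13, with 13 of 17 above 0. Without HET mouse 3, it was 0.14, also with 13 of 17 above 0. Leaving out other mice raised it, to 0.95 without WT mouse 2 (17 of 18 above 0), 0.75 without HET mouse 2, 0.70 without WT mouse 1 and 0.58 without HET mouse 1. Without WT mouse 3 or HET mouse 3, *Mki67* had a log2 fold change of 0.13 or 0.01, and *Cdk1* had −0.78 without WT mouse 3.

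**Figure D3:**
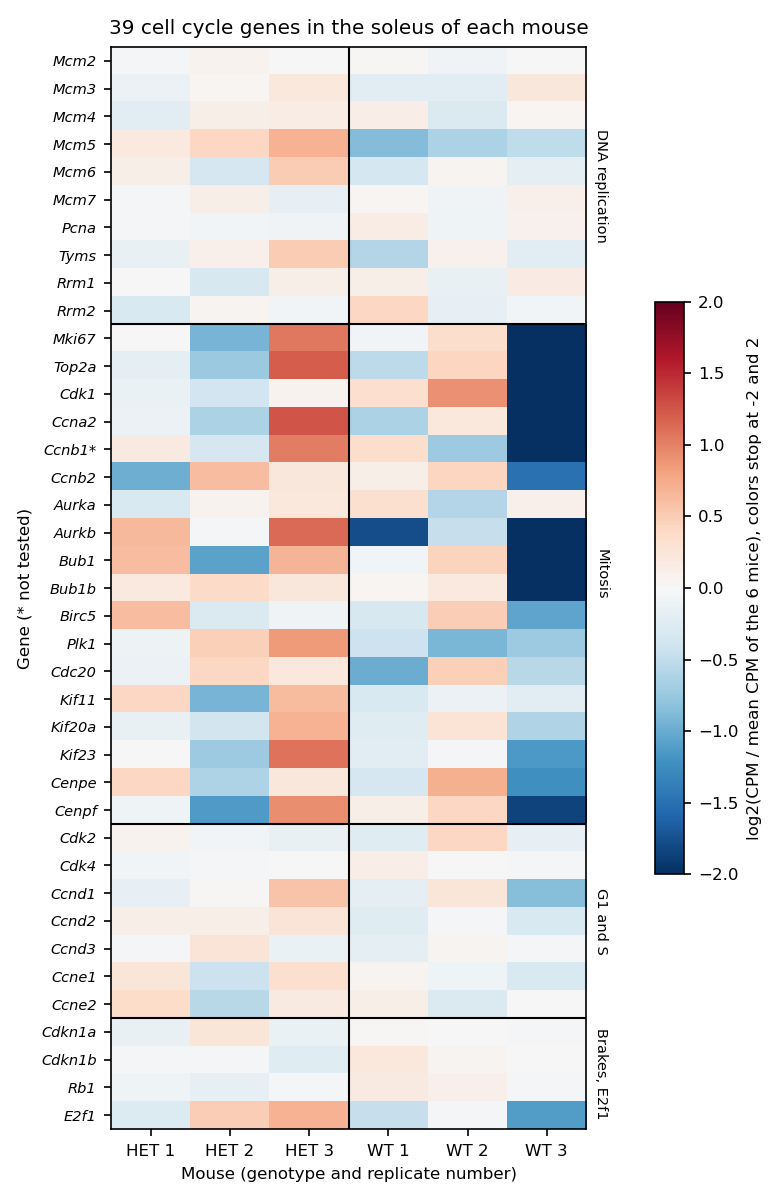
Level of each of the 39 genes (rows, by role) in each mouse (columns) as log2 of the CPM over its mean in the 6 mice, red above and blue below; the asterisk marks *Ccnb1*, which was not tested. Mitosis genes are mostly blue in WT mouse 3 and red in HET mouse 3, and most replication genes are paler, with *Mcm5*, *Tyms* and *Mcm6* the most colored.

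*Aurkb* and *Plk1*, which encode kinases of the chromosomal passenger complex and of the mitotic entry and spindle, were the mitosis genes whose genotypes did not overlap. *Aurkb* (chr11:69045647-69051664) had 20, 9 and 33 reads in HET and 3, 7 and 4 in WT, and its log2 fold change of 2.02 (SE 0.54) was the highest of the 38 genes. The unadjusted p was 0.00356 and the adjusted p 0.238 in edgeR, or 0.0459 when no filter on low counts was applied. Over the 11 alternatives that tested *Aurkb*, its adjusted p lay between 0.0459 and 0.831. *Plk1* had 14, 15 and 32 reads in HET and 9, 6 and 12 in WT, or 0.374, 0.559 and 0.729 CPM against 0.301, 0.213 and 0.243 CPM. Its log2 fold change was 1.14 (SE 0.42), with an unadjusted p of 0.0209 and an adjusted p of 0.463 in edgeR. For both genes, 0 WT libraries reached the filter's level, so these 2 genes entered the test through their HET libraries alone.

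Some other mitosis genes were level or broadly spread. *Kif11*, the motor that pushes spindle poles apart, had the highest level of the role per kilobase, at 0.645 CPM. It was at 4.14, 1.64 and 4.81 CPM in HET and 2.51, 2.87 and 2.67 CPM in WT. Here the HET mice lay on both sides of the WT mice, and WT mouse 3 did not stand apart. *Aurka*, an aurora kinase of the spindle poles, was also level in WT mouse 3 and is named after its values were seen. It was at 1.04, 1.34 and 1.48 CPM in HET and 1.60, 0.851 and 1.38 CPM in WT, with a log2 fold change of 0.00 (95% interval from −0.66 to 0.67). *Bub1b*, a spindle checkpoint gene named for the same reason, was at 1.34, 1.53 and 1.37 CPM in HET and 1.20, 1.35 and 0.243 CPM in WT, where WT mouse 3 alone was low. *Ccnb1*, which was not tested, had 10, 5 and 21 reads in HET and 9, 4 and 2 in WT. The remaining *Ccna2*, *Ccnb2*, *Bub1*, *Birc5*, *Cdc20*, *Kif23*, *Cenpe* and *Cenpf* had log2 fold changes between 0.21 and 1.04 with overlapping genotypes.

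The cyclins and kinases of G1 and S had more reads, with a median of 728 per mouse, and a median log2 fold change of 0.11. *Ccnd2* (chr6:127125162-127152193), the gene of cyclin D2, was at 29.5, 29.3 and 32.4 CPM in HET and 22.8, 26.5 and 22.0 CPM in WT. All HET mice lay above all WT mice, with a log2 fold change of 0.36 (SE 0.10, 95% interval from 0.12 to 0.59). The unadjusted p was 0.00632 and the adjusted p 0.290 (edgeR). *Ccnd1*, the gene of cyclin D1, was at 21.7, 24.6 and 36.0 CPM in HET and 21.2, 28.8 and 13.5 CPM in WT. Like the mitosis genes, it was highest in HET mouse 3 and lowest in WT mouse 3, and its log2 fold change of 0.39 (SE 0.30) was the highest of the role. *Ccnd3*, the gene of cyclin D3, was at 20.1, 24.6 and 18.8 CPM in HET and 18.1, 21.3 and 20.1 CPM in WT, a log2 fold change of 0.09 (SE 0.12).

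*Cdk4*, the kinase that D-type cyclins activate, was at 28.5, 29.0 and 29.7 CPM in HET and 32.4, 29.3 and 28.7 CPM in WT. Its 6 mice lay close together, and the 95% interval of its log2 fold change of −0.05 ran from −0.26 to 0.15. Per kilobase *Cdk4* had the highest level of the role, at 9.11 CPM. *Cdk2*, the S phase kinase, had the lowest fold change of the role, at −0.07 (SE 0.19), and was at 6.84, 6.26 and 5.88 CPM in HET and 5.52, 8.69 and 5.77 CPM in WT. The E-type cyclins *Ccne1* and *Ccne2* had log2 fold changes of 0.23 (SE 0.37) and 0.11 (SE 0.22), with overlapping genotypes.

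Of the brakes, *Cdkn1a* was level and *Cdkn1b* and *Rb1* lay slightly lower in HET without passing the adjusted threshold. *Cdkn1a*, which encodes the CDK inhibitor p21, was at 71.6, 94.0 and 72.2 CPM in HET and 80.4, 78.8 and 77.5 CPM in WT. HET mouse 2 stood above the other 5 mice, and the log2 fold change was 0.01 (95% interval from −0.24 to 0.25). At 35.6 CPM per kilobase, *Cdkn1a* had the highest level of the 39 genes. *Cdkn1b*, which encodes the CDK inhibitor p27, was at 53.2, 53.3 and 46.0 CPM in HET and 62.7, 56.2 and 54.2 CPM in WT. The genotypes did not overlap, with a log2 fold change of −0.18 (SE 0.10), an unadjusted p of 0.0893 and an adjusted p of 0.767 in edgeR. *Rb1*, the retinoblastoma gene, was at 27.4, 26.0 and 28.4 CPM in HET and 32.8, 31.3 and 28.7 CPM in WT. It also did not overlap, with the same log2 fold change of −0.18 (SE 0.10), an unadjusted p of 0.0867 and an adjusted p of 0.764 in edgeR.

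*E2f1*, the factor that RB1 holds back, had 27, 33 and 62 reads in HET and 19, 24 and 20 in WT. In CPM this was 0.721, 1.23 and 1.41 against 0.636, 0.851 and 0.405, and HET mouse 1 lay below WT mouse 2. The log2 fold change was 0.87 (SE 0.38), with an unadjusted p of 0.0461 and an adjusted p of 0.631 in edgeR. HET mouse 3 was highest and WT mouse 3 lowest, as for *Mki67*.

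Set side by side in each mouse, the replication genes varied less than the mitosis genes. The mean log2 CPM of the 10 replication genes was 2.44, 2.51 and 2.67 in HET mice 1 to 3 and 2.38, 2.34 and 2.46 in WT mice 1 to 3. The mean of the 17 tested mitosis genes was 0.21, −0.15 and 0.77 in HET and −0.08, 0.36 and −1.18 in WT. Replication minus mitosis was therefore 2.23, 2.66 and 1.91 in HET and 2.47, 1.98 and 3.64 in WT. WT mouse 3 had the largest distance between the roles and HET mouse 3 the smallest, and the other HET and WT mice interleaved. The mean distance was 2.26 ± 0.38 in HET and 2.70 ± 0.85 in WT (SD, n = 3), a difference smaller than the SD in WT. The median log2 fold change of the replication genes was 0.38 below that of the mitosis genes. Without WT mouse 3 it was 0.07 below, and without HET mouse 3 it was 0.13 below. It was 0.98 below without WT mouse 2, 0.73 below without HET mouse 2, 0.67 below without WT mouse 1 and 0.48 below without HET mouse 1. Summed over the role, the highest mouse had 1.18 times the CPM of the lowest in HET and 1.15 times in WT for replication, and 2.40 and 2.81 times for mitosis. Per kilobase of exon, 8 of the 10 replication genes had a higher level than any mitosis gene.

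**Figure D4:**
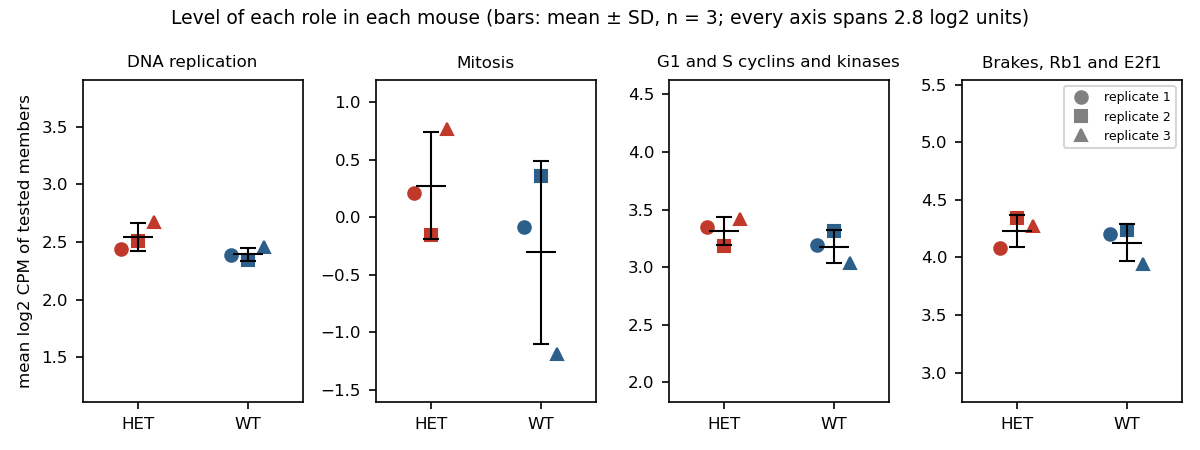
Mean log2 CPM of the tested genes of each role (y axis, one panel per role, each spanning the same number of log2 units) in HET (red) and WT (blue) mice, with symbols for replicates 1 to 3 and bars for mean ± SD (n = 3). The mitosis panel runs from −1.18 in WT mouse 3 to 0.77 in HET mouse 3, and the replication panel from 2.34 to 2.67.

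Other genes of the same pathways were counted in the same way. Of 45 further replication genes (origin recognition, GINS, polymerase, clamp loader and nucleotide genes), 43 were tested, with 21 above and 22 below 0, a median log2 fold change of 0.00 and 0 calls in edgeR. At an unadjusted p under 0.05 (edgeR), 2 lay higher and 1 lower in HET (6.98%, against 7.76% of all tested genes). The genotypes did not overlap in 2 genes higher and 3 genes lower in HET (11.6%, against 13.6% of all tested genes). *Uhrf1*, which keeps DNA methylation through replication, was at 1.20, 1.42 and 1.57 CPM in HET and 0.870, 0.638 and 0.344 CPM in WT, without overlap (log2 fold change 1.22, SE 0.36, adjusted p = 0.294, edgeR). Its adjusted p lay between 0.0480 and 0.841 over 12 alternatives, and 0.0480, past the threshold, was reached with no filter on low counts. *Gins2*, a partner of the MCM helicase, had 21, 14 and 32 reads in HET and 8, 12 and 13 in WT, also without overlap in CPM (log2 fold change 0.95, SE 0.38, adjusted p = 0.561, edgeR).

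Of 48 further mitosis genes, 39 were tested, with 31 above and 8 below 0, a median of 0.36, and 0 calls in edgeR as well as 0 genes at an unadjusted p under 0.05. HET mouse 3 was highest in 27 of the 39 and WT mouse 3 lowest in 20. Without HET mouse 3 the median was 0.01, with 20 of 38 above 0, and without WT mouse 3 it was 0.16, with 29 of 41 above 0. It was 0.81 without WT mouse 2 and 0.63 without HET mouse 2. The lowest unadjusted p belonged to *Incenp*, a scaffold of the Aurora B complex (log2 fold change 0.36, SE 0.17, adjusted p = 0.691, edgeR), and *Ndc80*, a kinetochore gene (0.93, SE 0.45, adjusted p = 0.695, edgeR). *Incenp* was at 3.31, 3.50 and 3.78 CPM in HET and 2.68, 2.94 and 2.65 CPM in WT, without overlap, whereas *Ndc80* overlapped. Of the 39 genes, *Incenp* was the only 1 without overlap (2.56%, against 13.6% of all tested genes). Among 25 tested G1 regulators and Rb family genes and 14 tested p53 target genes, 0 were called and the median log2 fold changes were −0.01 and −0.02. At an unadjusted p under 0.05, 1 gene of each list lay higher in HET and 0 lower.

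Markers of several cell types that can divide lay higher in HET mice, and their part in these values was not tested. Of all tested genes, 45.6% lay above 0, 0.15% were called and 7.76% had an unadjusted p under 0.05 (edgeR). Macrophage markers lay higher in HET, with 14 of 15 above 0 and 5 called by edgeR (*Adgre1*, *Csf1r*, *C1qa*, *C1qb* and *Lyz2*). They summed to between 133 and 172 CPM in HET mice and between 78.4 and 107 CPM in WT mice, at a median log2 fold change of 1.39. All 15 markers of fibroblasts and fibro-adipogenic progenitors (FAP) lay above 0, of which *Pi16* was called, and they summed to between 2783 and 3902 CPM in HET and between 1342 and 2154 CPM in WT. All 10 tenocyte markers lay above 0 with 0 calls and 8 at an unadjusted p under 0.05, and they summed to between 417 and 715 CPM in HET and between 138 and 327 CPM in WT. Satellite cell markers, with 4 above and 6 below 0, 0 calls and 1 lower at an unadjusted p under 0.05, summed to between 325 and 353 CPM in HET and between 335 and 347 CPM in WT. In 2 of the 10 satellite cell markers (20%) every HET mouse lay below every WT mouse, against 6.02% of all tested genes. In 0 of them every HET mouse lay above. The median log2 fold change was −0.06 over 15 endothelial, 0.07 over 10 smooth muscle and pericyte and −0.08 over 10 fiber markers, each with 0 calls. Of the fiber markers, 2 lay above and 8 below 0, down to −0.91. In 2 of the fiber markers (20%) every HET mouse lay below every WT mouse, against 6.02% of all tested genes.

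The order of the mice differed between these markers and the mitosis genes. Among the WT mice, WT mouse 3 had the highest sums of macrophage, fibroblast and tenocyte markers and the lowest sum of mitosis genes. HET mouse 3 was the highest of all for macrophage and fibroblast markers as well as for mitosis genes. HET mouse 2, in contrast, lay above every WT mouse for both marker lists but below WT mice 1 and 2 for the mitosis genes.

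**Figure D5:**
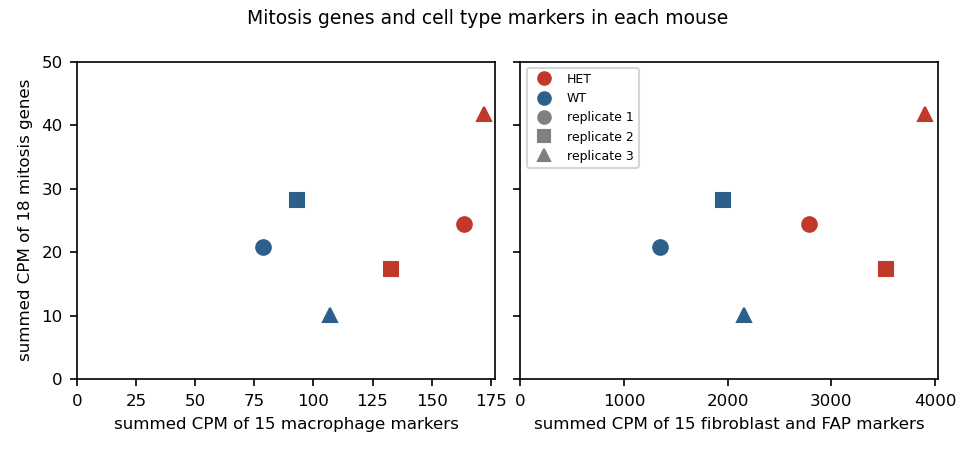
Summed CPM of the 18 mitosis genes (y axis) against the summed CPM of 15 macrophage markers (left x axis) and of 15 fibroblast and FAP markers (right x axis), one point per HET (red) and WT (blue) mouse with symbols for replicates 1 to 3. HET mice lie to the right of WT mice in both panels, while on the y axis WT mouse 3, at 10.1 CPM, is lowest and HET mouse 2, at 17.4 CPM, next.

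Neighboring genes share some exon sequence with the members on the opposite strand, which the reverse-stranded counting keeps apart. The largest shares were 33.2% of the exon bases of *Kif20a* with *Cdc23*, 23.4% of *Ccnd1* with *LTO1* and 19.7% of *Cdk4* with *Tspan31*. On the same strand the members overlapped only small RNA genes in the reference annotation, with at most 1.99% of the exon bases, in *Mcm7*.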

How the data were processed

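RNA of 6 soleus muscles was sequenced as single reads. The authors aligned them to GRCm38.p6 with STAR 2.7.3a and counted them per gene with featureCounts 2.0.3 in reverse-stranded mode, and the deposited raw counts were used for every value. The deposited normalized signal is this count over the library's size factor (0.773 to 1.42) and served to find the genes by symbol. The authors' comparison file, with fold changes and p-values of DESeq2, was not used, and 0 columns of values per mouse were left without a sample.

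Genes were filtered with filterByExpr (minimum count 10), scaled with TMM factors and tested by genotype alone with edgeR 4.0.16 in R 4.3.3 (quasi-likelihood test, robust). The test used all 6 mice, was two-sided, adjusted by Benjamini-Hochberg across all 14696 tested genes, and a gene was called at an adjusted p under 0.05. The biological coefficient of variation was 0.143. The SE is the log2 fold change over the square root of F. Per mouse means of log2 CPM used a prior count of 2. Levels per kilobase are the mean CPM of the 6 mice over the exon length of the count table. The spread of a gene's reads between mice of a genotype was compared with counting error by a chi-square per degree of freedom. The steps were tested on simulated data.

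Genes were named singly by a rule, except *Aurka* and *Bub1b*, which were chosen after their values were seen, and *Mcm6* and the untested *Ccnb1*. It covers 15 chosen members, members at an unadjusted p under 0.05 or without overlap, those with the highest or lowest fold change or the highest level per kilobase in each role, called genes of the marker lists, and the 2 genes with the lowest p in each of the further replication and mitosis lists. Members and lists were chosen with earlier results of these data known. Alternatives were DESeq2 1.42.0 and its scaling factors, limma-voom (limma 3.58.1), other filters, the replicate number as a block and leaving out each mouse. Figures were made with matplotlib 3.10.9.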

Additional observations from a re-analysis of the deposited data

How the results depend on the processing

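Against 21 genes higher and 1 lower in HET over all genes, there were 386 and 18 when no filter on low counts was applied, 200 and 10 with DESeq2, 3 and 0 with limma-voom, and 114 and 2 with the replicate block. Leaving out 1 mouse gave between 0 and 77 genes higher and between 0 and 6 lower, with 77 and 6 without WT mouse 3, and 0 of either without HET mouse 1, HET mouse 3, WT mouse 1 or WT mouse 2. Of the members, 2 of 39 (5.13%) were called with no filter (*Mcm5* and *Aurkb*), where 1.39% of 29081 genes were called, and 0 in the other 11 of 12 alternatives. The median log2 fold change lay between −0.03 and 0.10 for replication genes and between 0.13 and 0.95 for mitosis genes over the 12 alternatives, and the difference between them between −0.98 and −0.07. All of these moved by less than the SD between mice, which was 0.10 for replication, 0.65 for mitosis and 0.66 for the difference. Each SD was larger than the size of the main value (0.04, 0.42 and −0.38). A move to 0 would thus also have stayed within it, and no stability can be read from this. Of 451 recomputed values of single members, 426 kept their sign. The deviations of HET and WT mice of the same number correlated at r = 0.20, −0.01 and −0.03 across genes for numbers 1 to 3. Mice of different numbers correlated at between −0.14 and 0.13, so the value for number 1 was the highest of all pairings. The labels do not give the numbers as pairs, and they were not read as pairs in the main test. Whether mice of 1 number shared a batch or litter was not tested. The block called 0 members. The mitosis genes had a median of 39.5 reads per mouse and replication genes 243, and the median width of their 95% intervals was 2.23 and 0.74 log2 units. Depth alone did not order the widths: the interval was 4.31 wide for *Mki67*, with 33 to 372 reads, and 1.33 for *Aurka*, with 24 to 68.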
